A study of Homo sapiens with 11 samples.

Results

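The 26S proteasome and its companions were followed in the RNA of pancreatic tumours growing in the liver. The genes were every row whose symbol is PSM, a letter from A to G, and a number, which gave 48 of the 23434 rows in the authors' deposited table. The symbols were sorted by role into the alpha ring of the 20S core (8 genes), the constitutive beta ring (7), the immunoproteasome subunits PSMB8, PSMB9 and PSMB10 (3), the thymoproteasome subunit PSMB11 (1), the ATPases (6) and non-ATPases (11) of the 19S regulatory particle, the activators (4), the inhibitor PSMF1 (1) and the assembly chaperones (7). Of the 48 genes, 46 had an adjusted p. PSMA8, the testis form of an alpha subunit, was at 0 in every group of the authors' deposited table. PSMB11, which is known from the thymus, had means of only 1.50, 1.15 and 0.872 normalized counts in that table and no adjusted p.

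The tumours came from PANC1 LM3 cells, a liver-metastatic derivative of PANC1, an established human pancreatic ductal carcinoma line. All cells carried a short hairpin RNA: the control hairpin shCTRL (genotype given as WT, 4 libraries), or 1 of 2 hairpins against NPTX1, shNPTX1_3 (3 libraries) and shNPTX1_4 (4 libraries), both given as NPTX1 knock down. In every group 500000 cells went into the spleen on day 1 and the liver tumours were taken on day 21 for RNA sequencing. For the host's strain and age, pooling of animals and clonality of the hairpin lines, no statement is given in the sources used here. Libraries are called biological replicates without a named animal, so the p-values reflect how far these libraries differed among themselves, and that spread could be partly technical.

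The proteasome is the main protease of the cytosol and nucleus. Alpha rings gate a barrel whose beta rings hold the cutting sites, and a regulatory particle with a ring of ATPases takes off ubiquitin, unfolds the substrate and feeds it in. Interferon induces the immunoproteasome subunits, which replace the constitutive catalytic ones and alter the peptides offered to T cells on class I molecules. When proteasome capacity falls short, the transcription factor NFE2L1 is released from the endoplasmic reticulum by NGLY1 and the protease DDI2, and turns on most constitutive subunit genes through antioxidant response elements. In pancreatic carcinoma, as in other epithelia, the constitutive subunits are expressed throughout.

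The sequences around the starts of 5 of the genes show where the letters of 2 known motifs lie. They are PSMB5, the constitutive chymotrypsin-like subunit, PSMB8 and PSMB9, its inducible counterpart and that of PSMB6, PSMC4, the most abundant member, and PSMC5, the single member that fell. Each window runs 5′ to 3′ from 250 bases before to 50 after a RefSeq transcript start, in GRCh38.p14. Capitals mark every match, on either strand, of TGANNNNGC (the antioxidant response element, bound by NFE2L1 and NFE2L2 with small MAF proteins) or TTCNNNGAA (the gamma-activated site of interferon gamma signalling).
PSMB5, chr14:23034851-23035150, minus strand: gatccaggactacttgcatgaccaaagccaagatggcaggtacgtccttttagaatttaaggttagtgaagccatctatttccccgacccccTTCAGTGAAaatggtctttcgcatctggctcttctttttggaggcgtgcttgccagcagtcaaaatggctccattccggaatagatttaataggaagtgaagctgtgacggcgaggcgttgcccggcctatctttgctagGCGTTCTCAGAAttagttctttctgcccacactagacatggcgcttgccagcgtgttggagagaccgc
PSMB8, chr6:32843998-32844297, minus strand: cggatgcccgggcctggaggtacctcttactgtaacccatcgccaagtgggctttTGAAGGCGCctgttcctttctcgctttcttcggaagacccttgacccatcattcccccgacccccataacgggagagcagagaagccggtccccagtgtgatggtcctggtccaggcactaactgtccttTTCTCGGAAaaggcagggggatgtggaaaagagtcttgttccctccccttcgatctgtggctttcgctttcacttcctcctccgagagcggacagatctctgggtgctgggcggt
PSMB9, chr6:32853942-32854241, plus strand: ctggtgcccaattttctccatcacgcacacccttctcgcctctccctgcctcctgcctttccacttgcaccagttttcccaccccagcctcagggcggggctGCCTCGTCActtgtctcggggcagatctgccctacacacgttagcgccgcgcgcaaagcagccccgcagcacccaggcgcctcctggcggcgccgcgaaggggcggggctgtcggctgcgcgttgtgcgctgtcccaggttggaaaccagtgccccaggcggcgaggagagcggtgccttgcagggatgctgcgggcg
PSMC4, chr19:39970915-39971214, plus strand: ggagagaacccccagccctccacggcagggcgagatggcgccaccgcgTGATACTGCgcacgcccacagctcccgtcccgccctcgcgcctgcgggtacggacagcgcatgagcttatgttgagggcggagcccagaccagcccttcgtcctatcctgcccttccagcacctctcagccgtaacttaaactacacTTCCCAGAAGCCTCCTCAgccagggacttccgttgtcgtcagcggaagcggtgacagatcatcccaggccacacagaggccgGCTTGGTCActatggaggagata
PSMC5, chr17:63827181-63827480, plus strand: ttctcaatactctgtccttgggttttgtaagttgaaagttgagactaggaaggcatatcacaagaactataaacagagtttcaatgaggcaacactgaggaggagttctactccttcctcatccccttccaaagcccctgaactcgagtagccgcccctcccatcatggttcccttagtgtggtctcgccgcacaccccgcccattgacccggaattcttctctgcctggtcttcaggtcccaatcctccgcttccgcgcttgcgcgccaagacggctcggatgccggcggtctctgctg
PSMC5, chr17:63827471-63827770, plus strand: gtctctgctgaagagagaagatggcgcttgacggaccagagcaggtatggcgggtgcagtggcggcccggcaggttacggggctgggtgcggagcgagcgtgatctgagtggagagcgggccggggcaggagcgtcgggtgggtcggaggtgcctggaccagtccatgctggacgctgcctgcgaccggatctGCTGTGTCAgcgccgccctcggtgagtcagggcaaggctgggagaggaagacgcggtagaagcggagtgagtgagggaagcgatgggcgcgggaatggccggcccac

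In the PSMB5 window printed, the response element GCGTTCTCA and the gamma-activated site TTCTCAGAA overlap, and another gamma-activated site lies further upstream. A second PSMB5 window, at another start, holds 2 response elements and no gamma-activated site. The PSMB8 window printed holds 1 match of each motif, well apart, and a second PSMB8 window holds 1 response element and no gamma-activated site, while the PSMB9 window holds a response element only. PSMC4 has 3 response elements, 1 of which directly follows a gamma-activated site. PSMC5 has no match around its first start and 1 response element around the second. RefSeq windows were found for 42 of the 48 genes, 51 windows in all. A response element was present in 32 of these 51 windows (62.7%), against 41.8% of 35116 windows of the same length over all genes. It was present in 6 of 10 alpha windows, 5 of 5 constitutive beta windows, 3 of 7 ATPase windows and 6 of 11 non-ATPase windows. The element was also in 3 of 4 immunoproteasome, 1 of 1 thymoproteasome, 3 of 4 activator, 0 of 2 inhibitor and 5 of 7 chaperone windows. The 5 beta windows stood for 4 genes, since PSMB1, PSMB6 and PSMB7 had no window. A gamma-activated site was present in 8 of the 51 windows (15.7%), against 7.66% over all genes. Alternative starts of 1 gene share sequence, and a match is a run of letters, not a measured binding site.

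The labels were checked first on the targeted gene. NPTX1, a secreted neuronal pentraxin, had means of 103 (shCTRL), 46.5 (shNPTX1_3) and 38.4 (shNPTX1_4) in the authors' deposited table, and its log2 fold change was -1.26 (SE 0.24, adjusted p = 3.65e-06, DESeq2). Low group means gave library depths of between 10800000 and 41200000 reads. Of the epithelial markers, 3 of 5 rose, and their summed means were 16151 (shCTRL), 56739 (shNPTX1_3) and 29014 (shNPTX1_4). Hepatocyte markers summed to 79.8, 154 and 80.5, and 1 of the 4 tested rose, the apolipoprotein gene APOA1 (9.99, 49.3 and 21.9), while ALB, the main secreted protein of hepatocytes, stood at 0.784, 0.616 and 0.284. Leukocyte markers summed to 871, 932 and 769, most of it CD68, with 0 of 7 called by DESeq2 and 0 at an unadjusted p under 0.05. Endothelial markers summed to 371, 422 and 368 with 0 of 5 called by DESeq2 and 1, PECAM1, at an unadjusted p under 0.05. Fibroblast markers summed to 1667, 6507 and 3448, and 2 of 7 rose, but without the collagen gene COL3A1 the sums were 936, 990 and 1201. Over all 18426 tested genes 15.8% were called higher and 11.5% lower. In tumour pieces, fewer cells of a type and less RNA per cell cannot be told apart. The gene symbols are human, and a mouse genome build is named without a stated role. Whether these marker rows measure host cells is therefore not known, and like sums do not show a like host cell content.

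Proteasome genes as a group were higher in the NPTX1 knockdown tumours. The authors' comparison set the 7 knockdown libraries against the 4 control libraries. With adjusted p-values under 0.05 taken as called, 31 of the 46 tested genes rose, PSMC5 alone fell and 14 were not called. Over all 18426 tested genes 27.3% were called, 15.8% higher and 11.5% lower. The log2 fold changes of the authors' deposited table ranged from -0.28 for PSMC5 to 0.79 for PSMD10, with a median of 0.32 over the members and 0.02 over 14131 genes at 2 CPM or more (counts relative to the table's total, 2 CPM being 38.6 normalized counts). These are small changes, a 1.25-fold rise at the median, read against a median SE of 0.11 for the members. Scaling the knockdown libraries as a whole to the control total took 0.07 off every log2 fold change, with the deposited SEs kept. That scaling left 24 members higher and 1 lower, beside 11.6% of all genes higher and 16.4% lower. Under it, 41.4% of all called genes were higher, against 57.9% in the deposited comparison. The 7 rises lost were those of PSMA4, PSMA7, PSMB2, PSMB6, PSMB8, PSMD14 and PSME2.

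**Figure D1:**
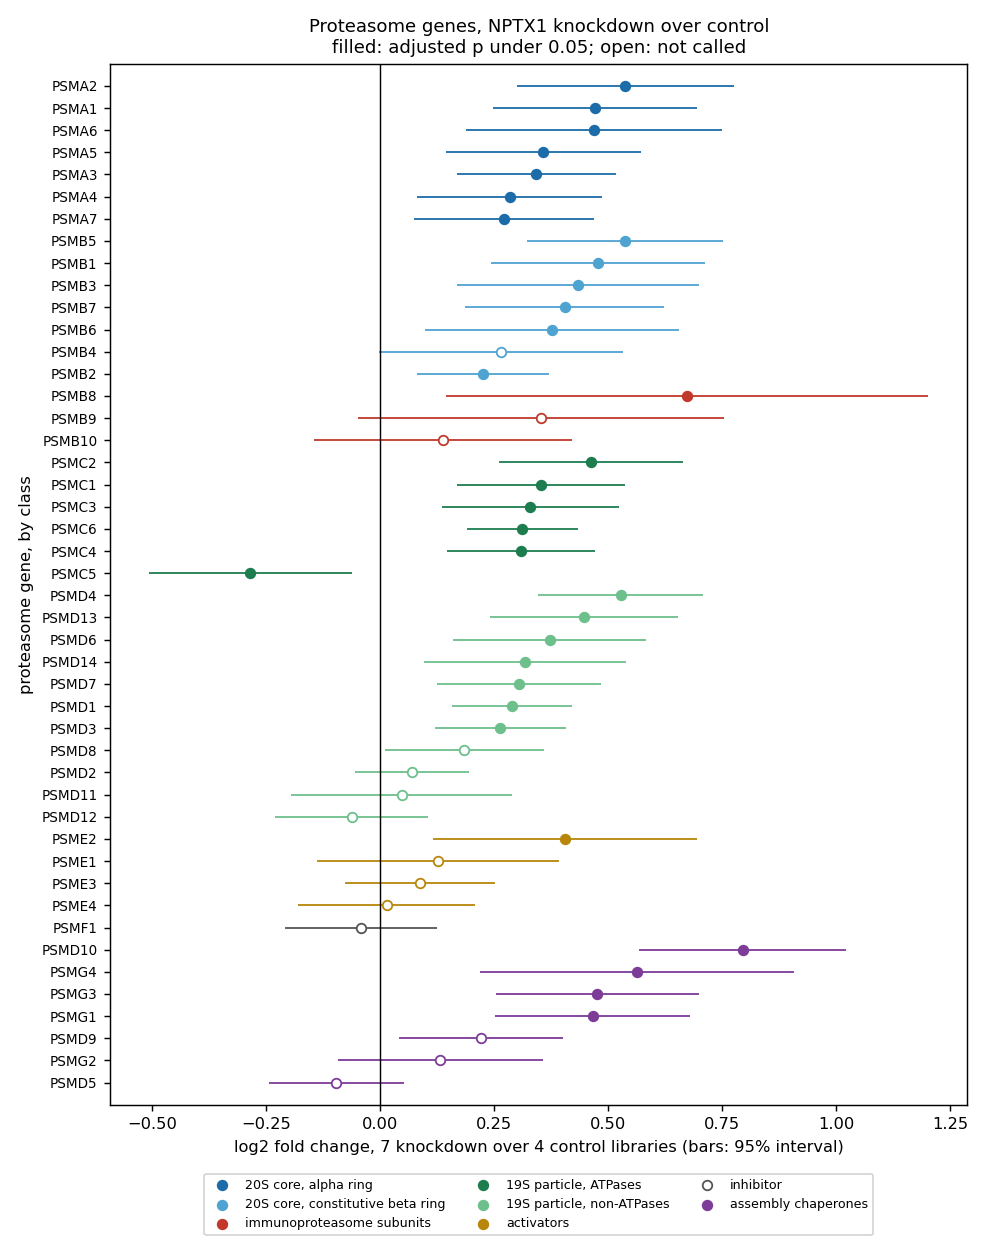
Log2 fold change (horizontal axis) of each tested proteasome gene, knockdown over control, with its 95% interval (1.96 SE), coloured by role; filled points have an adjusted p under 0.05. All 14 constitutive core genes lie right of 0, PSMC5 is the single filled point left of 0, and the interval of PSMB8 is the widest.

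Transcript length moved with the fold change over the other genes, where the share that rose was greatest for the shortest transcripts. Among the members the share was similar in the classes under 3 kb and smaller at 3 kb or more. The constitutive core transcripts are mostly short. Among members with a transcript under 1 kb, 7 of 9 rose, beside 38.6% of 484 other genes of that length at 2 CPM or more. Between 1 and 2 kb, 15 of 20 members rose beside 29.0% of 2068 other genes, and between 2 and 3 kb 4 of 5 rose beside 21.8% of 2788. Among members of 3 kb or more, 5 of 12 rose (PSMA4, PSMA5, PSMC1, PSMC2 and PSMD1) beside 16.5% of 7185 other genes. The 7 uncalled members of that length were PSMD2, PSMD5, PSMD11, PSMD12, PSME3, PSME4 and PSMF1. In each length class the members' median log2 fold change was above that of the other genes, at 0.38 against 0.27, 0.39 against 0.16, 0.26 against 0.08 and 0.08 against -0.02 from the shortest to the longest. The part of length in the members' changes was not tested.

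The alpha ring, which forms the outer gates of the core, rose as a whole. All 7 tested alpha genes were called higher, with log2 fold changes from 0.27 to 0.54 and a median of 0.36. PSMA2 led the ring with means of 2076 (shCTRL), 3114 (shNPTX1_3) and 2932 (shNPTX1_4) in the authors' deposited table. Both hairpins stood well above control, and the log2 fold change of PSMA2 was 0.54 (SE 0.12, adjusted p = 0.000133, DESeq2). PSMA6 had deposited means of 2766, 4461 and 3356 in the same order. Its rise in the authors' deposited table was 0.47 (SE 0.14, adjusted p = 0.0068, DESeq2), and the shNPTX1_3 mean was the highest of the 3. PSMA1 went from 1565 to 2316 and 2051, and PSMA3 from 1647 to 2189 and 2010, in the authors' deposited table. PSMA5, whose means there were 1115, 1389 and 1454, was highest in shNPTX1_4. PSMA4 (4413, 5421 and 5331) and PSMA7 (2619, 3283 and 3066) had the smallest rises of the ring, with adjusted p = 0.0270 and 0.0310 in the authors' deposited table (DESeq2).

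The constitutive beta ring carries the active sites in PSMB5 (chymotrypsin-like), PSMB6 (caspase-like) and PSMB7 (trypsin-like), with PSMB1 to PSMB4 as structural partners. Of its 7 genes 6 rose and 1 was not called, with a median log2 fold change of 0.40. PSMB5 had means of 1136, 1659 and 1636 in shCTRL, shNPTX1_3 and shNPTX1_4 in the authors' deposited table. The hairpin means lay close together, and the log2 fold change of PSMB5 was 0.54 (SE 0.11, adjusted p = 2.06e-05, DESeq2). PSMB7 had deposited means of 1680, 2411 and 2084, a rise of 0.40 (SE 0.11, adjusted p = 0.0023, DESeq2) in the authors' deposited table. PSMB6 had means there of 742, 1048 and 897, a rise of 0.38 (SE 0.14, adjusted p = 0.0342, DESeq2). So each constitutive catalytic gene passed the test.
Among the structural genes of the ring, the authors' deposited table had PSMB1 at 2942, 4506 and 3788 and PSMB3 at 675, 959 and 876. PSMB2 had a narrow rise there, from 1586 to 1818 and 1877 (log2 fold change 0.22, SE 0.07, adjusted p = 0.0127, DESeq2). PSMB4, at 1460, 2005 and 1566 in the authors' deposited table, was the core gene that did not pass, with 0.26 (SE 0.14, adjusted p = 0.135, DESeq2). Its shNPTX1_4 mean was near control. The 14 core genes together had 13 rises, a share of 92.9%.

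The ATPase ring, which unfolds substrates and opens the gate, rose in 5 of 6 genes and fell in PSMC5. PSMC2 had means of 2415 (shCTRL), 3416 (shNPTX1_3) and 3255 (shNPTX1_4) in the authors' deposited table, a log2 fold change of 0.46 (SE 0.10, adjusted p = 0.000116, DESeq2). PSMC6 had the narrowest error of all members, with deposited means of 2608, 3203 and 3254 and a log2 fold change of 0.31 (SE 0.06, adjusted p = 1.16e-05, DESeq2) in the authors' deposited table. PSMC1 (2443, 3019 and 3189) and PSMC3 (2759, 3699 and 3287) also rose there, by 0.35 and 0.33. PSMC5 ran the other way, at 748 (shCTRL), 651 (shNPTX1_3) and 594 (shNPTX1_4) in the authors' deposited table. Both hairpin means were below control. Its log2 fold change was -0.28 (SE 0.11, 95% interval -0.51 to -0.06, adjusted p = 0.0449, DESeq2). PSMC5 was lower under total-count scaling, with an adjusted p of 0.0111 (Wald test recomputed). It missed the threshold, at 0.0531, when the authors' p-values (DESeq2) were adjusted over every gene. PSMC5 shares exon sequence with FTSJ3 on the other strand, and the library kit named does not mark strand, so reads from the shared stretch cannot be assigned to either gene. In the authors' deposited table FTSJ3 had a log2 fold change of 0.18 (adjusted p = 0.104, DESeq2), the opposite sign to PSMC5. DDX42, the next gene beyond FTSJ3, fell there, at -0.44 (adjusted p = 0.00242, DESeq2). On the other side of PSMC5, SMARCD2 was not called, at 0.22 (adjusted p = 0.0782, DESeq2), and CSH2 had no adjusted p. The part of the locus in the PSMC5 fall was not tested.

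The level of PSMC4 stood apart from its ring partners, although 1 copy of each ATPase sits in the ring. In the authors' deposited table it was at 23524 (shCTRL), 30044 (shNPTX1_3) and 28432 (shNPTX1_4) normalized counts, a log2 fold change of 0.31 (SE 0.08, adjusted p = 0.00178, DESeq2). Per kb of transcript its mean over all libraries was 17025, above 99.9% of 12572 genes and 12.7 times the median of 1337 over the 31 constitutive 26S genes. The next members per kb were PSMB1 at 3961, PSMA6 at 3346, PSMA7 at 2974 and PSMD4 at 2685. This high level was present in all 3 groups, the control tumours included. PSMC4 lies on chromosome 19, and its neighbours there, looked up after its level was seen, included other abundant genes: FBL, a nucleolar methyltransferase, at 9938 per kb (above 99.6% of genes) and AKT2, a kinase, at 4024 (above 98.6%). The nearest genes on either side, FCGBP and ZNF546, were at 48.8 and 266 per kb. The authors' deposited table gave FBL a log2 fold change of -0.06 and AKT2 one of -0.01. Neither was called (adjusted p = 0.665 and 0.910, DESeq2). Like PSMC4, its neighbours FCGBP and MAP3K10 rose there, by 0.39 and 0.16 (adjusted p = 0.0457 and 0.0441, DESeq2). ZNF780B fell, at -0.27 (adjusted p = 0.0233, DESeq2), and the other neighbours looked up were not called or had no adjusted p. The part of the locus in the PSMC4 rise was not tested.

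**Figure D2:**
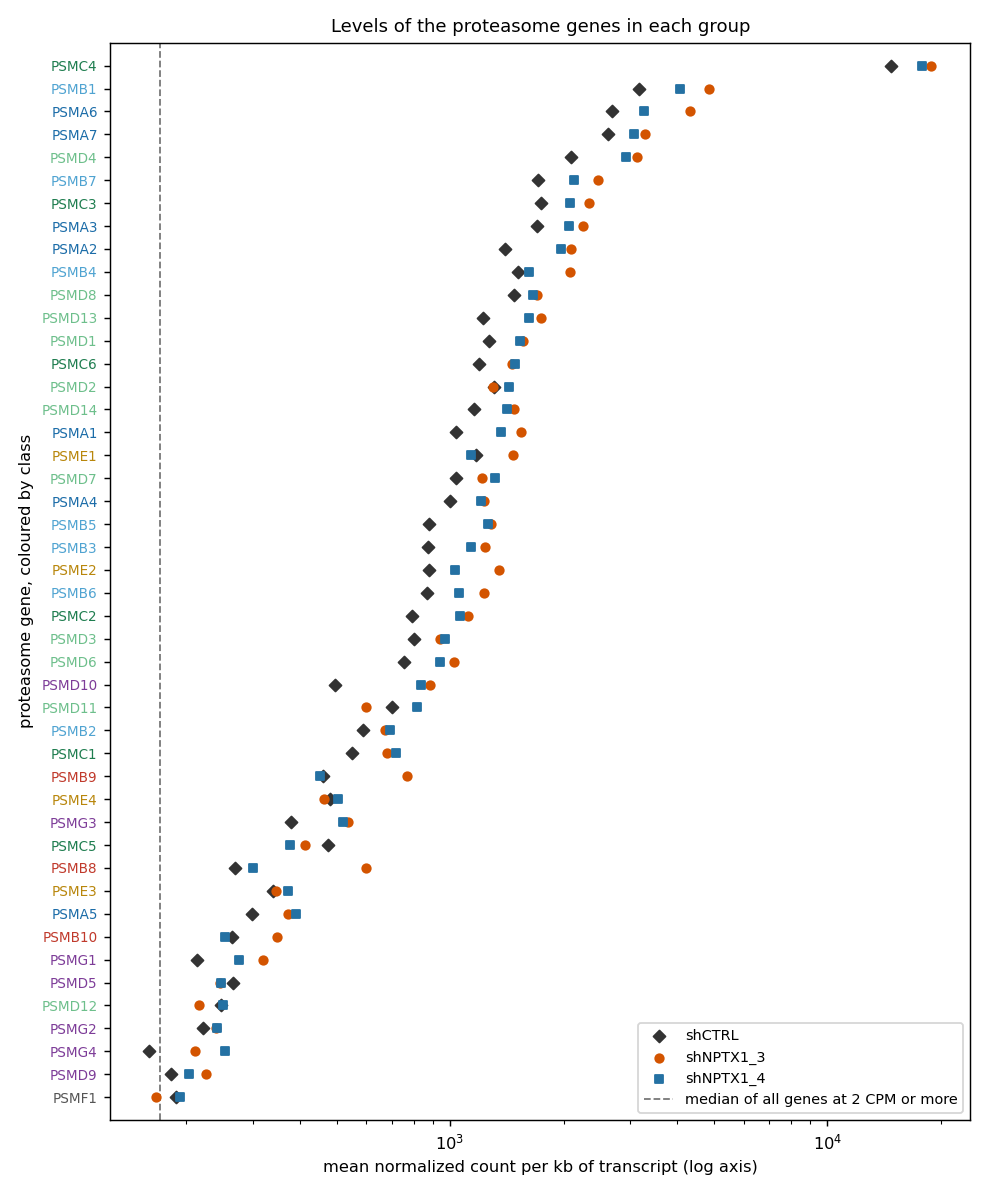
Group means divided by transcript length (horizontal log axis, normalized counts per kb) for the 46 measured proteasome genes, ordered by level; diamonds are shCTRL, circles shNPTX1_3 and squares shNPTX1_4, and the dashed line is the median of all genes at 2 CPM or more (170 per kb). PSMC4 lies apart at 17025 over all libraries, and the immunoproteasome genes lie in the lower part of the range.

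Per kb, most constitutive subunits were abundant. The 31 genes of the constitutive 26S particle had a median above 94.0% of all genes, and the lowest, PSMD12, was at 240 per kb. PSMC5 was the lowest ATPase at 421 per kb. The inducible catalytic genes were lower, with PSMB9 at 541, PSMB8 at 370 and PSMB10 at 283 per kb, though still above the all-gene median of 170. The lowest members were the chaperone PSMD9 at 202 and the inhibitor PSMF1 at 184 per kb, while the chaperones PSMD10 and PSMG3 stood higher, at 725 and 473. No spread per library was available, so whether neighbours in this order differ was not tested.

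The non-ATPase genes of the regulatory particle, which bind ubiquitin and scaffold the lid and base, split into 7 that rose and 4 that were not called. PSMD4, a ubiquitin receptor, had means of 2831 (shCTRL), 4234 (shNPTX1_3) and 3963 (shNPTX1_4) in the authors' deposited table. With both hairpins clearly above control, its log2 fold change was 0.53 (SE 0.09, adjusted p = 3.52e-07, DESeq2). PSMD13, a lid subunit, had deposited means of 2440, 3467 and 3215 and rose by 0.45 (SE 0.11, adjusted p = 0.000292, DESeq2) in the authors' deposited table. PSMD14, the metalloprotease that removes ubiquitin chains, was at 2259, 2882 and 2761 there, a rise of 0.32 (SE 0.11, adjusted p = 0.0226, DESeq2). The lid genes PSMD6 (1081, 1461 and 1347), PSMD7 (1727, 2032 and 2199) and PSMD3 (1727, 2034 and 2097) rose in the authors' deposited table. PSMD1, a large scaffold of the base, rose there from 4223 to 5205 and 5112. PSMD2, the other large scaffold of the base, did not pass, with means there of 4512, 4474 and 4931 (log2 fold change 0.07, SE 0.06, adjusted p = 0.439, DESeq2). Its 95% interval ran from -0.06 to 0.19, under the PSMD1 value of 0.29, and the difference between the scaffolds was not tested. The lid genes PSMD11 (2873, 2456 and 3349) and PSMD12 (1089, 951 and 1104) did not pass in the authors' deposited table (adjusted p = 0.812 and 0.621, DESeq2). For both, the shNPTX1_3 mean lay below control and the shNPTX1_4 mean above. PSMD8, also of the lid, had 0.18 (adjusted p = 0.105, DESeq2) in the authors' deposited table.

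The activators bind the ends of the core in place of the regulatory particle, and 1 of 4 rose, beside 15.8% of all tested genes. PSME2, the beta subunit of the interferon-inducible PA28 cap, had means of 1236 (shCTRL), 1896 (shNPTX1_3) and 1443 (shNPTX1_4) in the authors' deposited table. The log2 fold change of PSME2 was 0.41 (SE 0.15, adjusted p = 0.0267, DESeq2), and most of it lay in the shNPTX1_3 mean. PSME1, the alpha subunit of the same cap, was at 1180, 1475 and 1147 in the authors' deposited table, with 0.13 (SE 0.14, adjusted p = 0.520, DESeq2). Its shNPTX1_4 mean was just under control. PSME3, the nuclear PA28 gamma, and PSME4, the PA200 activator, were not called there, with log2 values of 0.09 and 0.01 (adjusted p = 0.461 and 0.932, DESeq2). The inhibitor PSMF1 was at 806, 714 and 827 in the authors' deposited table and was not called (-0.04, SE 0.09, adjusted p = 0.745, DESeq2). The median log2 fold change of the activators was 0.11.

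The assembly chaperones guide the rings together and leave before the particle is mature, and 4 of 7 rose, beside 15.8% of all tested genes. PSMD10, the regulatory particle chaperone also called gankyrin, had the largest rise of any member. Its means were 764 (shCTRL), 1368 (shNPTX1_3) and 1291 (shNPTX1_4) in the authors' deposited table, a log2 fold change of 0.79 (SE 0.12, adjusted p = 4.55e-10, DESeq2), or 1.73-fold. The 2 hairpins gave nearly the same level. PSMD10 is on the X chromosome, where 202 of 400 protein-coding genes at 2 CPM or more rose (50.5%, median log2 fold change 0.36). On one side its neighbours ATG4A, an autophagy protease, and COL4A6 rose by 1.08 and 0.63 (adjusted p = 2.5e-07 and 0.00373, DESeq2) in the authors' deposited table. On the other side VSIG1 was not called there, at -0.20 (adjusted p = 0.395, DESeq2), and TEX13B had no adjusted p. The part of the chromosome in the PSMD10 rise was not tested. Of the chaperones that build the alpha ring, PSMG1 (460, 686 and 595), PSMG3 (526, 746 and 722) and PSMG4 (134, 177 and 213) rose in the authors' deposited table, by 0.47, 0.48 and 0.56. PSMG2, the partner of PSMG1 in a heterodimer, did not pass there, at 372, 403 and 407 (0.13, SE 0.11, adjusted p = 0.410, DESeq2). The base chaperones PSMD9 (507, 626 and 566) and PSMD5 (914, 846 and 853) did not pass in the authors' deposited table, with 0.22 and -0.10 on a log2 scale (adjusted p = 0.0578 and 0.351, DESeq2).

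The immunoproteasome genes behaved unevenly, and their errors were wide. PSMB8 had means of 302 (shCTRL), 674 (shNPTX1_3) and 337 (shNPTX1_4) in the authors' deposited table. The shNPTX1_3 mean was far above the other groups and shNPTX1_4 was near control. The comparison of all 7 knockdown libraries gave PSMB8 a log2 fold change of 0.67 (SE 0.27, 95% interval 0.14 to 1.20, adjusted p = 0.0476, DESeq2), just inside the threshold. Under total-count scaling the recomputed Wald test gave PSMB8 an adjusted p of 0.0766. PSMB9 was at 359, 601 and 354 in the authors' deposited table, a log2 fold change of 0.35 (SE 0.20, adjusted p = 0.192, DESeq2). PSMB10 was at 323, 422 and 309 there, with 0.14 (SE 0.14, adjusted p = 0.508, DESeq2). So PSMB8 alone of the 3 was called, beside 27.3% of all tested genes. For PSMB9 and PSMB10 the shNPTX1_4 mean was at or just under control.
These SEs were large for the level. Among 1429 genes with means of 300 to 450 normalized counts the median SE was 0.12, and the SE of PSMB8 exceeded that of 97.8% of them, PSMB9 93.8% and PSMB10 76.8%. PSMG2, at a like level, exceeded 43.7%. The deposited comparison treats both hairpins as 1 group, so a difference between them enters the SE. The largest SE among the constitutive 26S genes was 0.14. PSMB8 and PSMB9 both share exon sequence with PSMB8-AS1, on the other strand and the same strand respectively, so part of their reads could belong to it. Leukocyte markers, which could bring immunoproteasome RNA with them, summed to 871, 932 and 769 in the 3 groups with 0 of 7 called, and the T cell gene CD3E was at 0, 1.23 and 0. Whether these human gene rows measure leukocytes of the host is not known. The part of leukocytes in the immunoproteasome levels was not tested.

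**Figure D3:**
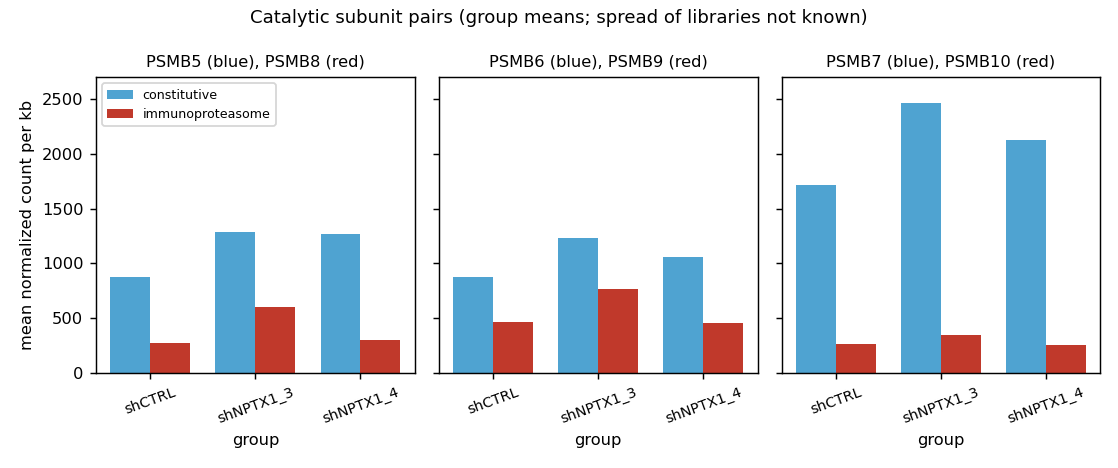
Mean normalized counts per kb of transcript (vertical axis) of each constitutive catalytic gene (blue) beside its inducible counterpart (red) in shCTRL, shNPTX1_3 and shNPTX1_4; bars are group means and no spread per library is known. The inducible gene is below the constitutive one in all 9 pairs of bars, and in shNPTX1_3 PSMB8 is at 600 per kb against 268 in shCTRL.

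Set against the constitutive gene of the same site, the inducible genes gave different ratios under the 2 hairpins. The log2 ratio of PSMB8 to PSMB5 was -1.91 in shCTRL, -1.30 in shNPTX1_3 and -2.28 in shNPTX1_4, a difference from control of 0.61 for the first hairpin and -0.37 for the second. For PSMB9 over PSMB6 the log2 ratios were -1.04, -0.80 and -1.34. For PSMB10 over PSMB7 they were -2.38, -2.51 and -2.75, below control for both hairpins. So in shNPTX1_4, where PSMB5, PSMB6 and PSMB7 were higher and the inducible genes near control, all 3 ratios lay below control (differences of -0.37, -0.29 and -0.37). In shNPTX1_3 the ratio was higher for PSMB8 and PSMB9 and lower for PSMB10. These ratios are free of the scaling between groups, and they carry no error because the values are group means.

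Each hairpin was then read alone against the shared control libraries, from group means with a pseudocount of 1. In shNPTX1_3, 39 of 46 members had a mean above control, beside 51.4% of the 14131 genes at 2 CPM or more, and the members' median log2 ratio was 0.37. In shNPTX1_4, 41 of 46 were above control, beside 52% of all genes, with a median of 0.27. The 20S core was above control in 14 of 14 genes under each hairpin, with medians of 0.50 and 0.30. The 19S particle had medians of 0.30 and 0.28, and the chaperones 0.40 and 0.37. The shNPTX1_3 mean was above the shNPTX1_4 mean in 31 of 46 members, beside 47.5% of all genes, and in 12 of the 14 core genes. The widest gap between the hairpins was that of PSMB8, at a log2 ratio of 1.00 between them, then PSMB9 at 0.76 and PSMB10 at 0.45. On the other side was PSMD11, lower in shNPTX1_3 by a log2 ratio of -0.45. Differences between the hairpins were not tested, since no spread per hairpin was available.

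**Figure D4:**
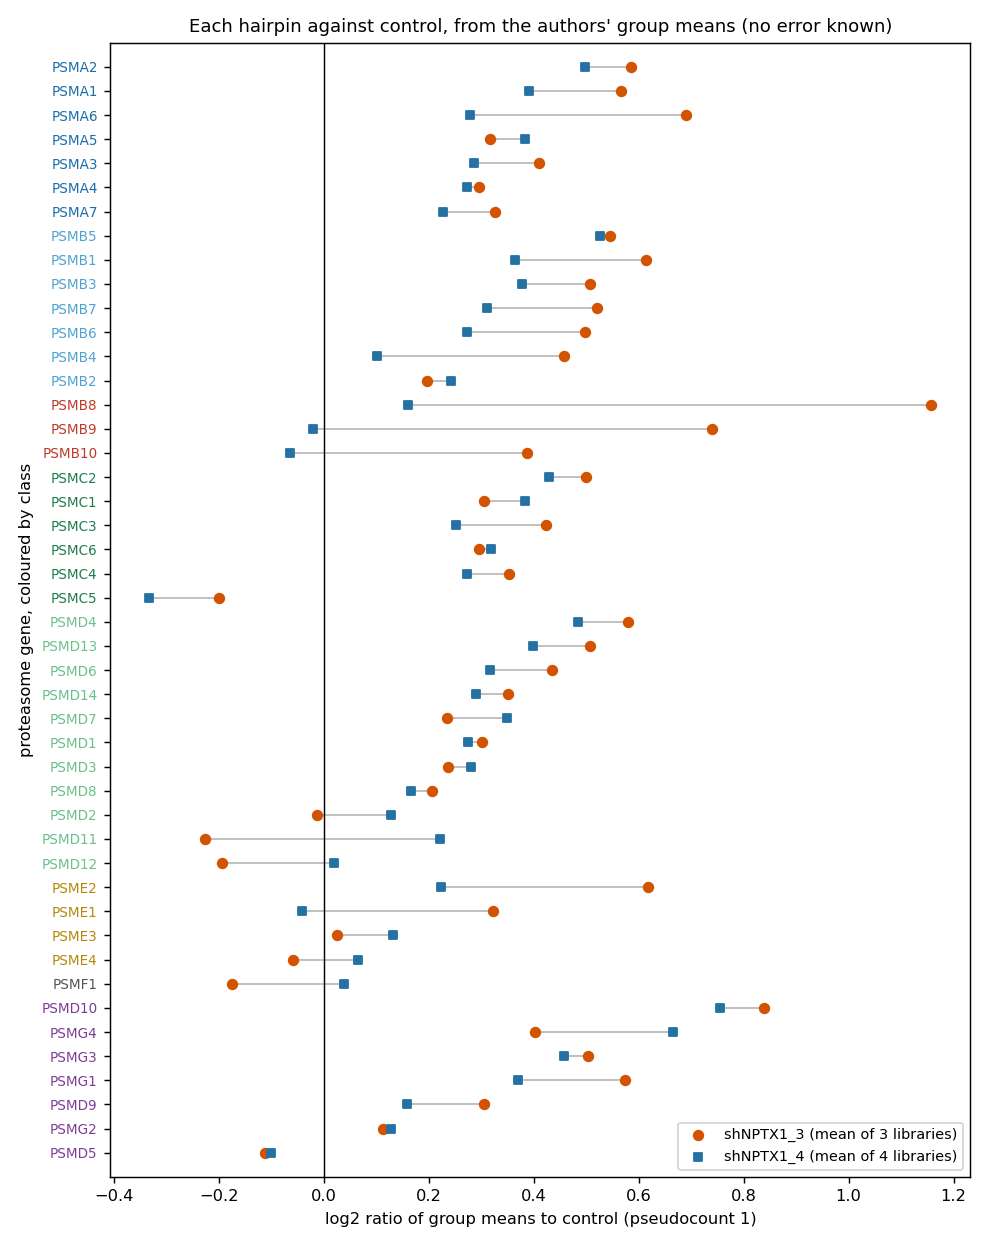
Log2 ratio of each hairpin's mean to the control mean (horizontal axis, pseudocount of 1) for the 46 measured genes, circles for shNPTX1_3 and squares for shNPTX1_4, joined by a grey line and with labels coloured by role. All core genes have both marks right of 0, PSMC5 and PSMD5 have both left of 0, and the line is longest for PSMB8, from 0.16 to 1.16.

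Of 21 partner genes (receptors, deubiquitinases, shuttles, maturation factors and the VCP unfoldase), 5 rose, 2 fell and 14 were not called, with a median log2 fold change of 0.07. These are shares of 23.8% higher and 9.52% lower, near the 15.8% and 11.5% over all tested genes. SEM1, the smallest subunit of the lid, had means of 1911 (shCTRL), 2310 (shNPTX1_3) and 2709 (shNPTX1_4) and rose by 0.41 (SE 0.12, adjusted p = 0.00384, DESeq2) in the authors' deposited table. ADRM1, a ubiquitin receptor of the base, and POMP, the maturation factor of the core, did not pass there, at 0.13 (adjusted p = 0.338) and 0.21 (adjusted p = 0.202, DESeq2). ZFAND2A, an arsenite-induced partner of the 19S particle, rose by 0.67 (adjusted p = 9.45e-05), UBE3C, a ligase on the particle, by 0.38 (adjusted p = 2.78e-06) and VCP by 0.22 (adjusted p = 0.0193, DESeq2) in the authors' deposited table. KIAA0368, a proteasome adaptor now named ECPAS, was the remaining one, at 0.14 (adjusted p = 0.0465, DESeq2) in the authors' deposited table, and was named after its value was seen. USP14, the deubiquitinase that trims chains at the particle, fell by 0.42 (adjusted p = 0.00112) and DDI2, the protease that releases NFE2L1, fell by 0.39 (adjusted p = 0.00122, DESeq2) there. With total-count scaling the partners had 3 rises and 4 falls.

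Of 7 regulators of proteasome genes 2 rose and 1 fell, against 27.3% of all tested genes called in either direction. NFE2L1 was at 5704 (shCTRL), 7028 (shNPTX1_3) and 7016 (shNPTX1_4) in the authors' deposited table, a rise of 0.30 (SE 0.07, adjusted p = 0.000411, DESeq2). NFE2L2, the oxidative stress factor that reads the same element, was at 3295, 2576 and 2378 there, a log2 fold change of -0.42 (SE 0.10, adjusted p = 0.000201, DESeq2). The hairpins gave like values for NFE2L1, and both lay below control for NFE2L2. NFE2L3, a relative, rose by 0.20 (adjusted p = 0.0408) and NGLY1 was not called at 0.13 (adjusted p = 0.324, DESeq2) in the authors' deposited table. With total-count scaling 1 regulator was higher and 1 lower. Activity of NFE2L1 depends on its processing, which RNA levels do not measure. Of 6 ubiquitin and E1 genes 2 rose, against 15.8% of all tested genes, among them the stress-inducible polyubiquitin gene UBB, by 0.50 (adjusted p = 0.00271, DESeq2) in the authors' deposited table.

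**Figure D5:**
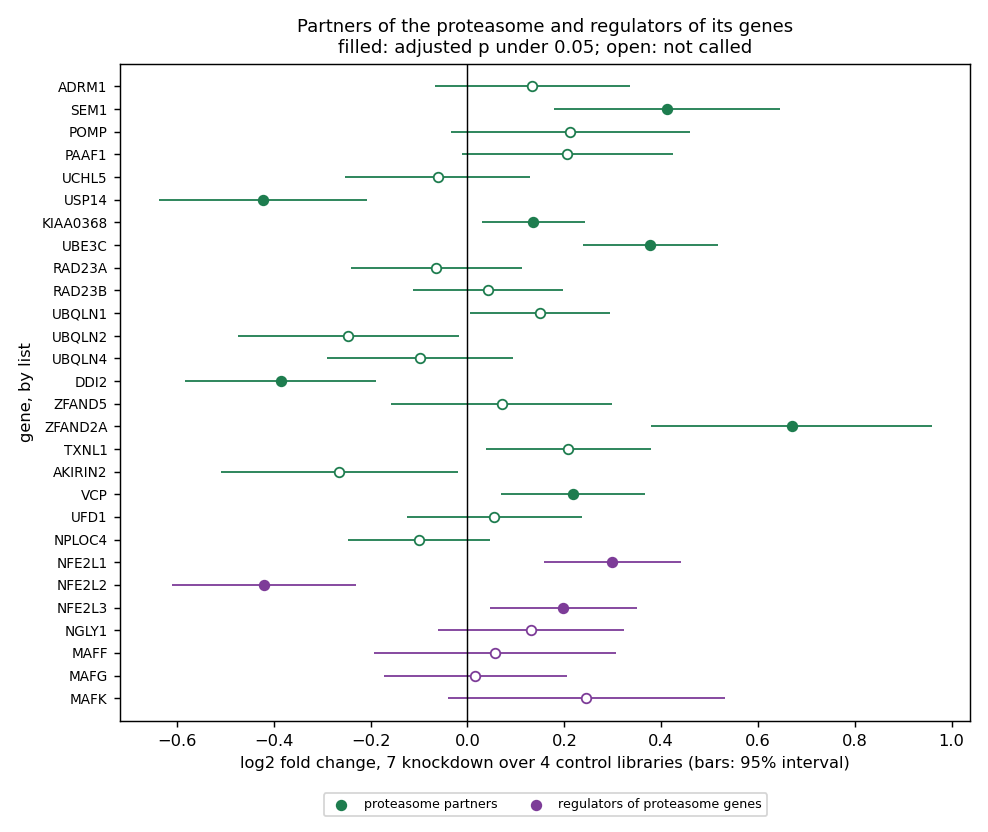
Log2 fold change (horizontal axis) with its 95% interval for the 21 partners and 7 regulators, knockdown over control, coloured by list; filled points have an adjusted p under 0.05. Partners lie on both sides of 0 with USP14 and DDI2 filled on the left, and NFE2L1 and NFE2L2 are filled on opposite sides.

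The list of class I presentation and interferon signalling holds genes that share inducers with the immunoproteasome, beside receptor chains and kinases of the pathway. It gave 5 rises and 0 falls among 18 by DESeq2 (JAK2 was lower at an unadjusted p under 0.05), with a median log2 fold change of 0.16. The share called, 27.8%, was near the 27.3% over all tested genes, but here all 5 calls were rises. Over all tested genes 15.8% were called higher and 11.5% lower. The median log2 ratio of the 18 genes to control was 0.37 in shNPTX1_3 and -0.11 in shNPTX1_4. For the immunoproteasome genes it was 0.74 and -0.02. The mean was above control in 15 of 18 genes under shNPTX1_3 and in 7 of 18 under shNPTX1_4. TAP1, the peptide transporter gene that lies beside PSMB9, had means of 1457 (shCTRL), 2015 (shNPTX1_3) and 1273 (shNPTX1_4) and TAP2 of 1535, 2026 and 1489 in the authors' deposited table. Neither was called (adjusted p = 0.659 and 0.469, DESeq2). The genes that passed included ERAP2, a peptide trimmer, at 0.76 (adjusted p = 0.00986), IFNGR2, a chain of the interferon gamma receptor, at 0.36 (adjusted p = 0.0187), the chaperone CALR at 0.33 (adjusted p = 0.00711) and, named after its value was seen, the kinase JAK1 at 0.29 (adjusted p = 0.0400, DESeq2) in the authors' deposited table. IRF1, an interferon-induced transcription factor, was not called at 1485, 1889 and 1145 (adjusted p = 0.950), nor was NLRC5, the class I transactivator, at 46.5, 43.9 and 34.8 (adjusted p = 0.364, DESeq2) in the authors' deposited table. With total-count scaling the list had 3 rises and 1 fall.

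Shared sequence limits a few of these values. In GENCODE annotation 17 of the 48 genes share an exon with another gene, 12 of them with a gene on the other strand, among them PSMC1 with NRDE2, PSMD13 with SIRT3, PSME2 with RNF31 and PSMA2 with MRPL32. Pseudogenes named after members numbered 32, for 12 members, 13 of them for PSMC1 and 4 for PSMA6. None of the 32 had a row in the authors' deposited table, so the split of reads with these near-copies could not be examined and the values of PSMC1 and PSMA6 are the least certain in this respect.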

How the data were processed

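RNA was sequenced from 11 liver tumour libraries. A Norgen kit gave the total RNA and TruSeq (version 2) the libraries, per the labels' protocols. Tools named in the submitters' processing notes are DESeq2 1.24, MultiQC 1.9, featureCounts 2.0.0 and STAR 2.7.6a, with the builds hg19 and mm39 in no stated role. Of annotation, strand setting and handling of mouse reads nothing is given in the sources used here.

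The authors' deposited table holds, per the file headers, the mean of each group and, for the knockdown comparison, a log2 fold change with SE, Wald statistic, p-value and adjusted p per gene. The group means are a signal, counts divided by size factors and averaged by the authors. The log2 values of the authors compare 7 knockdown with 4 control libraries, and the Wald statistic is a score deposited beside them. No value per library was given, so the planned edgeR test was replaced by the authors' p-value. For total-count scaling and centring, the Wald p-value was recomputed from the shifted log2 fold change and the deposited SE. These p-values, and the authors' p-values over other sets of genes, were adjusted again by the Benjamini-Hochberg method. A gene was called at an adjusted p under 0.05. Intervals are 1.96 SE either side (95%). Hairpin ratios used a pseudocount of 1.

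Of 23434 rows, 107 were left out (79 with no name, 26 named by a date, 2 with a repeated name), with 0.387% of the counts. 2 CPM equals 38.6 normalized counts. Low group means, whose steps were whole reads within 2e-05 for 83.8%, 79.6% and 81.3% of values in shCTRL, shNPTX1_3 and shNPTX1_4, gave the library depths, which set the precision. Transcript lengths and overlaps came from GENCODE (GRCh38), promoter windows from RefSeq (GRCh38.p14). Levels per kb divide by the length of the longest transcript tagged principal, or of the longest protein-coding transcript where none was tagged. The order by level and the length classes depend on this choice. Checks of the script on simulated data were run. Alternatives were total-count scaling, centring on the median gene, other sets of p-values, a threshold of 0.01 and pseudocounts of 0.5 and 10. All members were named, with up to 4 called genes per direction from each other list and a few always named. A few genes of the other lists are counted there but not reported here by name. Members, lists and motifs were chosen with earlier results of these data known. Python 3.11.15, pandas 2.3.3, numpy 2.4.6, scipy 1.17.1 and matplotlib 3.10.9 were used.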

Additional observations from a re-analysis of the deposited data

How the results depend on the processing

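No paired analysis was possible because the authors' deposited table holds group means and no value per library. For the same reason the edgeR and DESeq2 fits of counts, the fit with the replicate number and leaving out each library were not run, so how far 1 library carries a value is not known. Of 152 alternatives to 42 summary values, 144 were labelled as kept. That label was loose, since a change from 31 to 24 members higher counted as kept. Many of the alternatives, such as other pseudocounts, could hardly move a value, so the tally is no measure of robustness. Of single members, PSMD11 (0.05 to -0.019 with total-count scaling) and PSME4 (0.01 to -0.052 with total-count scaling and -0.0085 after centring) changed sign, and neither was called. The count of members that fell, 1 (PSMC5), and that of the 19S particle, also 1, became 0 and 0 when p-values were adjusted over every gene, and 0 and 0 at a threshold of 0.01. With total-count scaling the median log2 ratio of shNPTX1_3 to control was 0.21 for the 19S particle, against 0.30, and 0.14 for the non-ATPases, against 0.24. The median log2 fold change of the immunoproteasome genes, 0.35, was 0.74 from shNPTX1_3 alone and -0.021 from shNPTX1_4 alone, an alternative chosen after seeing the data. Members higher numbered 24 with total-count scaling and 29 after centring on the median gene (without PSMA7 and PSMB8). They numbered 30 when adjusted over every gene (without PSMB8), 32 when adjusted over genes at 2 CPM or more (with PSMD9) and 24 at 0.01. Over all 18426 tested genes, 2132 were higher with total-count scaling, 2620 after centring and 1899 at 0.01. Adjusted over every gene, 2792 of 21794 were higher, and over genes at 2 CPM or more 2869 of 14127. The partners' counts of 5 higher and 2 lower became 3 and 4 with total-count scaling, and the cause was not tested. With a median SE of 0.11, the smallest rise called among the members was 0.22 (PSMB2), and smaller changes were not detectable in most of them.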
